A study of Mus musculus with 4 samples.

Results

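Kirrel2 and Kirrel3, a pair of adhesion genes of olfactory sensory neurons, were chosen by name, as 2 of the 22399 genes counted. Their UMIs (unique molecular identifiers, each marking 1 captured RNA molecule) were followed in every cell, in stages of the neurons set by Gap43 and Omp, and in neurons grouped by the odorant receptor they transcribed. The series held 4 droplet libraries that read transcripts from the 5′ end. The tissue was main olfactory epithelium, and the mice were C57BL/6J wild type, 3 months old, with 2 libraries from females and 2 from males. No treatment, transgene or sort was named, and no group served as an untreated control for another. The labels give each library as a separate sample without saying more about the animals, so no p-value reaches beyond these 4 samples. In the stage and receptor tests, differences between libraries were taken out as a block. Their p-values thus measure the spread that remains among the sums of cells, and the 268 receptor sums come from only 4 libraries.

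Kirrel proteins are cell surface proteins of the immunoglobulin family that bind copies of themselves on other cells, and they are related to nephrin, the protein of Nphs1, in the filter of the kidney. A mature olfactory sensory neuron (OSN) settles on a single odorant receptor gene, and neurons that share a receptor send their axons to common glomeruli of the olfactory bulb. Kirrel2 and Kirrel3 are known there as sorting molecules, whose levels depend on the receptor and on neuronal activity and which hold like axons together.

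Kirrel2 (ENSMUSG00000036915) is a protein-coding gene on chromosome 7 from 30447534 to 30457690, on the minus strand of GRCm38 in GENCODE M21. Kirrel3 (ENSMUSG00000032036) is protein-coding and lies on chromosome 9 from 34485894 to 35036716, on the plus strand. The third member of the family, Kirrel (ENSMUSG00000041734), is on chromosome 3. Nphs1 (ENSMUSG00000006649) starts 624 bases from the start of Kirrel2 and runs the other way, from 30458315 to 30487223 on the plus strand. An antisense gene, Kirrel3os, is annotated at Kirrel3 and was not among the counted genes. Whether the counting used the strand was not given in the sources used here, so reads of overlapping antisense RNA cannot be told apart from Kirrel3. Because Nphs1 and Kirrel2 are read from one short interval, and both were higher in mature than in immature neurons, the stretch of that interval next to Kirrel2 is shown. It holds the 75 bases before the GENCODE start of Kirrel2, chr7:30457691-30457765, minus strand, from the RefSeq promoter of Kirrel2 on GRCm38.p6, in lower case throughout because neither motif searched falls in it.
Kirrel2 upstream stretch: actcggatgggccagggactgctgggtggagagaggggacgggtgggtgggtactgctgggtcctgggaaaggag
G and C made up 66.7% of the stretch and 59.7% of the whole 300 base promoter, against a median of 52.7% over 32851 RefSeq promoters of that length. The motif CCCNNGGG, the core of the Olf/Ebf site of olfactory genes, was searched on both strands and reads the same on each. It matched the Kirrel2 promoter at bases 269 to 276 and 293 to 300 of the window, which lie after the RefSeq start, and 13.7% of the promoters held at least 1 match. The homeodomain core TAATTA had 0 matches in that window and occurred in 5.29% of the promoters. The 2 motifs do not overlap. No entry matched Kirrel3.

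The libraries held 100725429 to 111577458 UMIs over 10256 to 10777 barcodes. After filtering and doublet removal 8869 to 9339 cells remained per library, 36385 in all, with medians of 8244 to 9066 UMIs. Between 106 and 126 barcodes were shared by a pair of libraries, 1.15% to 1.39% of the cells of either. Cells were called Omp-positive when Omp, the olfactory marker protein of mature OSNs, reached at least 1000 CPM (UMIs of a gene scaled to a common total of UMIs per cell or sum), and Gap43-positive when Gap43, a growth protein of young neurons, reached 500 CPM. Gap43 alone marked 2328 immature neurons, both genes 1102 transitional neurons, and Omp alone 20260 mature neurons. Omp and Gap43 set these gates and are no result. The gates are shares of a cell's UMIs, so a shallow cell can pass with few UMIs, and stage names rest on the gates alone. An unnamed cluster of 1074 cells led by Obp1a, with a median of 1447.5 UMIs, was 96.1% Omp-positive. Unnamed clusters of 145 cells led by C1qa (median 1183 UMIs) and 21 cells led by Krt17 (median 894 UMIs) were 40.0% and 52.4% Omp-positive. Stage results were also computed in cells of at least 5000 UMIs. After doublet removal 999 of the 21362 Omp-positive cells, 155 to 352 per library, were still in clusters that mixed neuronal and sustentacular markers at high depth. Results were also computed without them.

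Kirrel2 was a gene of OSNs, whereas Kirrel3 was as high in a small class of microvillar cells as in mature OSNs. Clustering without either gene gave 43 clusters, of which 26 could be named from marker genes as 14 classes and 17, with 16.9% of the cells, stayed unnamed. In mature OSN-like cells Kirrel2 was at 1252, 1110, 1126 and 905 CPM in female 1, female 2, male 1 and male 2 (1098 ± 144, SD, n = 4, 18538 cells). In immature OSN-like cells it was at 253 ± 9.69 CPM (SD, n = 4), below every value of the mature class. Immediate neuronal precursor-like cells had 41.0 ± 11.5 CPM and globose basal-like cells, the dividing progenitors, 14.5 ± 5.49 CPM (both SD, n = 4). Sustentacular-like cells, which support the neurons, had 20.8 ± 2.64 CPM and horizontal basal-like cells, the reserve stem cells, 18.6 ± 5.38 CPM (both SD, n = 4). From precursor-like cells down to globose basal-like cells, each class overlapped the next in the order over the libraries. Neutrophil-like cells came next after immature OSN-like cells at 129 ± 119 CPM (SD, n = 4), but this rested on 44 UMIs in 115 cells, and female 2 with 306 CPM set it apart from 54.2 to 87.7 CPM in the other libraries.

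The highest mean of Kirrel3 was in ionocyte-like microvillar cells, a class of 244 cells led by Coch, Moxd1 and Foxi1. It was at 138, 117, 143 and 87.7 CPM there in the 4 libraries, from 46, 41, 71 and 30 UMIs (121 ± 25.01, SD, n = 4). Mature OSN-like cells had 100.4, 102.3, 93.5 and 101 CPM (99.4 ± 3.98, SD, n = 4), so the classes overlapped, with 3 of the 4 ionocyte-like values above every neuronal one. Tuft-like microvillar cells had 41.5 ± 20.2 CPM (SD, n = 4, 36 UMIs), overlapping immature OSN-like cells at 37.2 ± 4.34 CPM (SD, n = 4). Sustentacular-like cells followed at 18.8 ± 0.980 CPM (SD, n = 4), below every value of immature OSN-like cells and above every value of globose basal-like cells at 8.88 ± 1.23 CPM (SD, n = 4). Precursor-like cells, next to the neurons in the lineage, had the lowest mean at 1.96 ± 1.93 CPM (SD, n = 4, 13 UMIs).

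**Figure D1:**
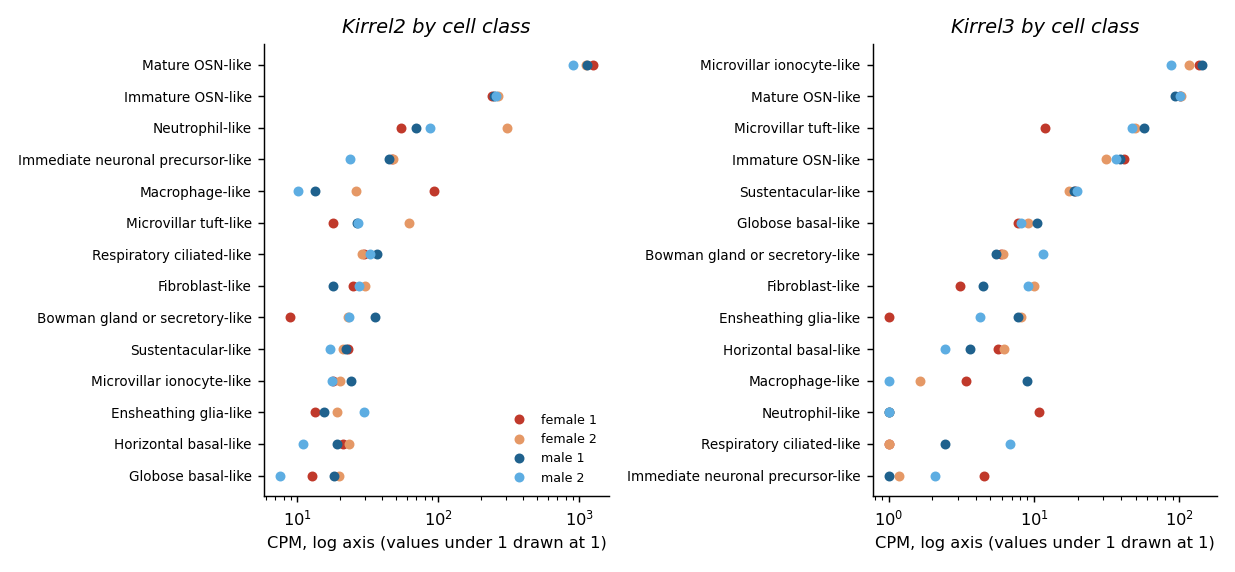
Level of Kirrel2 (left) and Kirrel3 (right) in each named class, in CPM on a log axis, with 1 point per library and classes ordered by their mean. Mature OSN-like cells lead for Kirrel2 at 905 to 1252 CPM, and ionocyte-like cells overlap mature OSN-like cells at the top for Kirrel3, at 87.7 to 143 CPM.

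A UMI can also come from RNA free in the droplet, so shares of neurons are given with those of other classes. Kirrel2 had a UMI in 89.8% ± 1.53 of mature neurons, 22.5% ± 2.86 of sustentacular-like cells and 13.5% ± 3.62 of horizontal basal-like cells (SD, n = 4), at median depths of 7655, 13538 and 7981 UMIs. Thinned to 2000 UMIs per cell, these shares were 75.5% ± 3.27, 4.37% ± 0.890 and 3.99% ± 1.07. The last pair lay close together and far below the neurons. Kirrel3 had a UMI in 34.6% ± 1.26 of mature neurons, 20.4% ± 0.943 of sustentacular-like cells and 3.44% ± 1.48 of horizontal basal-like cells, and thinned in 15.1% ± 0.415, 4.10% ± 0.583 and 0.980% ± 0.771. In ionocyte-like cells the Kirrel3 share was 45.4% ± 5.19, and 23.3% ± 1.97 thinned (SD, n = 4, median depth 5977.5 UMIs). Thinning left out 1894 mature, 2 sustentacular-like, 13 horizontal basal-like and 9 ionocyte-like cells that were too shallow.

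The balance of the genes also differed between classes. Mature OSN-like cells had 8.93 to 12.5 Kirrel2 UMIs for each Kirrel3 UMI over the libraries, and horizontal basal-like cells 3.71 to 5.25. Sustentacular-like cells had 0.864 to 1.21 and ionocyte-like cells 0.13 to 0.20. The ratios of these 3 other classes lay below that of mature OSN-like cells in all 4 libraries. Pooled over libraries, mature OSN-like cells had 11.1. Higher pooled ratios were found in precursor-like (20.2), respiratory ciliated-like (13.7), macrophage-like (11.7) and neutrophil-like cells (44), but from only 13, 7, 7 and 1 Kirrel3 UMIs. The remaining classes had 0.806 to 6.74.

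Both genes rose as neurons gained Omp, and they parted between the transitional and mature stages. Kirrel2 was at 147, 174, 161 and 149 CPM in immature neurons of female 1, female 2, male 1 and male 2, at 796, 749, 774 and 649 CPM in transitional neurons, and at 1188, 993, 1038 and 840 CPM in mature neurons. The stages did not overlap, and the level rose at each step. Kirrel3 was at 32.3, 25.4, 27.4 and 27.5 CPM in immature, 110.0, 109, 104 and 110.3 CPM in transitional, and 91.3, 87.9, 82.4 and 88.8 CPM in mature neurons. It was highest in the transitional stage in every library, again with no overlap between stages. The mix of receptors was not held equal between the stages, and what it adds to these steps was not tested.

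**Figure D2:**
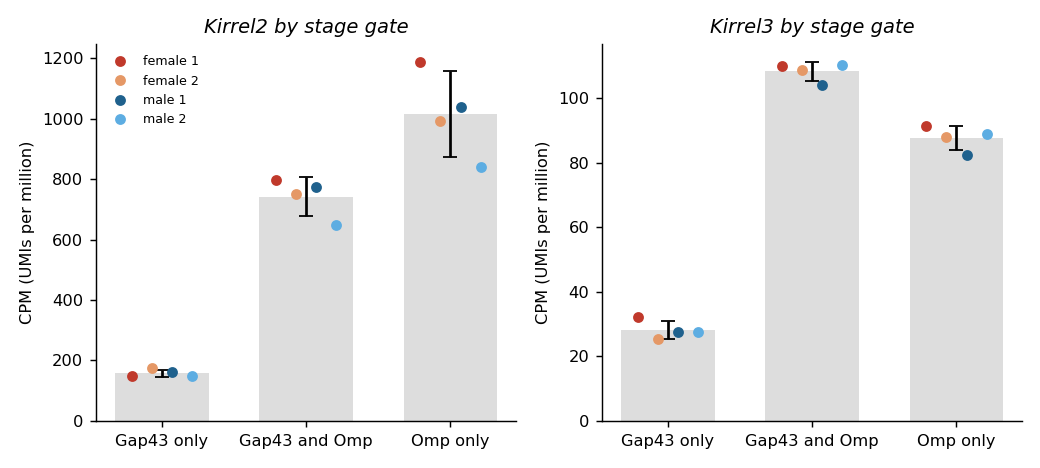
Level of Kirrel2 (left) and Kirrel3 (right) by stage gate, in CPM, with grey bars for the mean of 4 libraries, error bars for the SD and points for the libraries. Kirrel2 climbs from 158 to 742 and 1015 CPM, while Kirrel3 climbs from 28.2 to 108 CPM and then stands at 87.6 CPM.

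In the quasi-likelihood test of edgeR over 13513 genes, with the library as a block, Kirrel2 rose from immature to mature neurons by 2.90 ± 0.0830 on the log2 scale (SE, adjusted p = 2.28e-09) and Kirrel3 by 1.86 ± 0.0473 (SE, adjusted p = 1.11e-09). Calls were common in this comparison, at 71.0% of the genes tested, 36.1% of them higher and 34.8% lower, so the size of the change says more than the call. Only 722 of the genes had a larger log2 change than Kirrel2 and 1223 a larger one than Kirrel3. From immature to transitional neurons, where 53.3% of the genes were called, 28.6% higher and 24.6% lower, Kirrel2 rose by 2.38 ± 0.0830 (SE, adjusted p = 3.23e-08) and Kirrel3 by 2.09 ± 0.0517 (SE, adjusted p = 3.98e-09). From transitional to mature neurons 51.6% of the genes were called, 25.4% higher and 26.2% lower. Kirrel2 rose there by a further 0.53 ± 0.0764 (SE, adjusted p = 3.70e-04), and Kirrel3 fell by 0.22 on the log2 scale (SE 0.0436, adjusted p = 0.00213, lower in 4 of 4 libraries). The decrease of Kirrel3 was -0.14 with doublets kept and -0.41 with the Omp gate at 2000 CPM.

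Shares of cells moved the same way at equal depth. Thinned to 2000 UMIs, Kirrel2 was seen in 24.5% ± 1.73 of immature, 63.5% ± 2.01 of transitional and 75.5% ± 3.27 of mature neurons (SD, n = 4). Kirrel3 was seen in 5.59% ± 1.07, 20.8% ± 1.98 and 15.1% ± 0.415 of them. The unthinned shares were 58.3%, 87.8% and 89.8% for Kirrel2 and 21.3%, 50.2% and 34.6% for Kirrel3, at median depths of 10442.5, 12306 and 7655 UMIs.

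Within Gap43-positive cells both genes followed Omp. Cells under 250, from 250 to 1000, from 1000 to 4000 and at 4000 CPM of Omp or more had 116, 238, 678 and 879 CPM of Kirrel2 and 20.5, 42.7, 84.4 and 159 CPM of Kirrel3, as means of 4 libraries. Kirrel3 in the highest of these bins (142 to 177 CPM, 395 cells) was above every value of the mature stage.

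Sustentacular markers were present in all stages. The 6 markers together came to 3601 to 4887 CPM in immature, 660 to 5656 CPM in transitional and 2713 to 4260 CPM in mature neurons, against 31934 to 37115 CPM in sustentacular-like cells. None of the 6 was at 0 in any stage. Without the mixed clusters, Kirrel2 rose by 2.99 ± 0.0598 and Kirrel3 by 2.02 ± 0.0939 from immature to mature neurons (log2, SE), so the increase was as large.

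Relatives and partners changed in both directions, in shares near those of all genes. All gene lists were chosen with earlier results of these data known, so counts over a list are a description and no test of it. Of the 8 tested genes in the list of the Kirrel family and its binding partners, beside the 2 members, 3 were higher and 4 lower in mature than in immature neurons, against 36.1% higher and 34.8% lower over all genes, with a median log2 change of -0.10 against -0.01. Kirrel was at 7.41, 3.63, 7.73 and 6.79 CPM in immature and 62.3, 60.7, 64.3 and 65.5 CPM in mature neurons, and rose by 3.53 ± 0.131 (log2, SE, adjusted p = 1.29e-08, edgeR). Nphs1, the neighbour of Kirrel2, went from 0.529, 1.74, 1.73 and 2.10 CPM to 15.02, 17.6, 24.2 and 21.1 CPM, with the stages apart in every library. It rose by 3.94 ± 0.294 (log2, SE, adjusted p = 1.73e-06, edgeR), and by 2.10 ± 0.273 between transitional and mature neurons (adjusted p = 1.92e-04, edgeR). Tjp1, a scaffold of cell junctions, rose by 0.74 ± 0.0488, and Fyn, a tyrosine kinase that phosphorylates nephrin, fell by 2.56 on the log2 scale (SE 0.0478).

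Among 7 tested genes of activity-linked axon sorting other than the 2 members, 6 were higher and 1 lower in mature than in immature neurons (36.1% and 34.8% of all genes), with a median log2 change of 0.54 against -0.01 over all genes. Epha5, a receptor of ephrin-A ligands, rose by 4.32 ± 0.0842 and its ligand gene Efna5 by 1.06 ± 0.0675 (log2, SE). Sema7a, a membrane-bound semaphorin, rose by 2.22 ± 0.0713, while its receptor gene Plxnc1 fell by 2.70 on the log2 scale (SE 0.251). Between transitional and mature neurons 3 of the 7 were higher and 4 lower (25.4% and 26.2% of all genes), with a median of -0.37 against 0.02, and the 4 that fell with Kirrel3 at this step were Plxnc1, Pcdh10, Pcdh17 and Cntn4.

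Genes that place axons along the axes of the bulb changed in both directions, where 36.1% of all genes were higher and 34.8% lower. In the anterior-posterior list 3 of 5 were higher and 2 lower in mature neurons, with Plxna3, a semaphorin receptor, up by 2.30 ± 0.0466 and Nrp1, its co-receptor, down (log2 change -1.42 ± 0.0812, SE). In the dorsal-ventral list 1 of 4 was higher and 3 were lower. The median log2 changes of these lists were 0.57 and -0.53, against -0.01 over all genes. Of the 9 genes for transduction and activity markers 7 were higher and 2 lower, with a median log2 change of 3.49. Cnga2, Adcy3, Gnal and Cngb1 of this list were also used as markers of mature OSN-like cells. Their rise in cells gated on Omp is thus no result about the list. S100a5, a calcium binding protein used as an activity marker, rose by 6.26 ± 0.0677 (log2, SE).

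Neither gene passed the test between the sexes. In Omp-positive cells the log2 difference of males over females was -0.17 ± 0.140 for Kirrel2 and -0.03 ± 0.0519 for Kirrel3 (SE, adjusted p = 0.999 for both, edgeR, 2 against 2 libraries). Only 0.00681% of the genes were called, which was the single gene Eif2s3y on the Y chromosome, named after its value was seen. The Kirrel2 difference was -0.04 without female 1, -0.30 without female 2, -0.33 without male 1 and -0.03 without male 2.

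Neurons of different receptors differed in both genes far beyond the spread between libraries. A receptor was assigned when the top odorant receptor (Olfr) gene of an Omp-positive cell had at least 3 UMIs and 80% of the Olfr UMIs, which held for 17902 cells (82.5% to 84.6% per library) and 956 receptors. Of these, 67 receptors had at least 10 cells in each library, with 6065 cells in all. In edgeR's quasi-likelihood F test over 10033 genes other than receptors, with 268 sums and the library as a block, Kirrel2 had F = 33.8 (adjusted p = 1.75e-83) and Kirrel3 F = 52.0 (adjusted p = 8.59e-102). Calls made up 34.8% of the genes tested, and a larger F was found for 23 genes than for Kirrel2 and for 8 genes than for Kirrel3. The SD over receptors was 0.81 for Kirrel2 and 1.48 for Kirrel3 on the log2 scale, against 0.28 and 0.45 between libraries of a receptor and a median over all genes of 0.28 over receptors.

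The genes differed in how they were spread. Kirrel2 means ran from 195 to 2308 CPM over the 67 receptors with a median of 1149, and the upper quartile was 2.06 times the lower. Kirrel3 means ran from 2.004 to 456 CPM with a median of 50.5, and its upper quartile was 10.6 times the lower. At most 10 Kirrel3 UMIs were found over the 4 libraries for 21 receptors. Neighbours in the order of Kirrel3 overlapped over the libraries in all 66 pairs, and for Kirrel2 in all but 1. Of all 2211 pairs of receptors, 53.9% did not overlap for Kirrel2 and 67.7% for Kirrel3. This share was not computed for other genes.

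The order of receptors was alike in females and males. Receptor means of the summed females and the summed males correlated with Pearson's r = 0.893 and Spearman's rho = 0.859 for Kirrel2, and with r = 0.920 and rho = 0.938 for Kirrel3 (n = 67 receptors, as a description). Receptors of a sex share its libraries and their depth. The median depth of a receptor's cells ran from 4742 to 11478.5 UMIs, and its log2 correlated with r = -0.15 with Kirrel2 and r = 0.00 with Kirrel3.

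**Figure D3:**
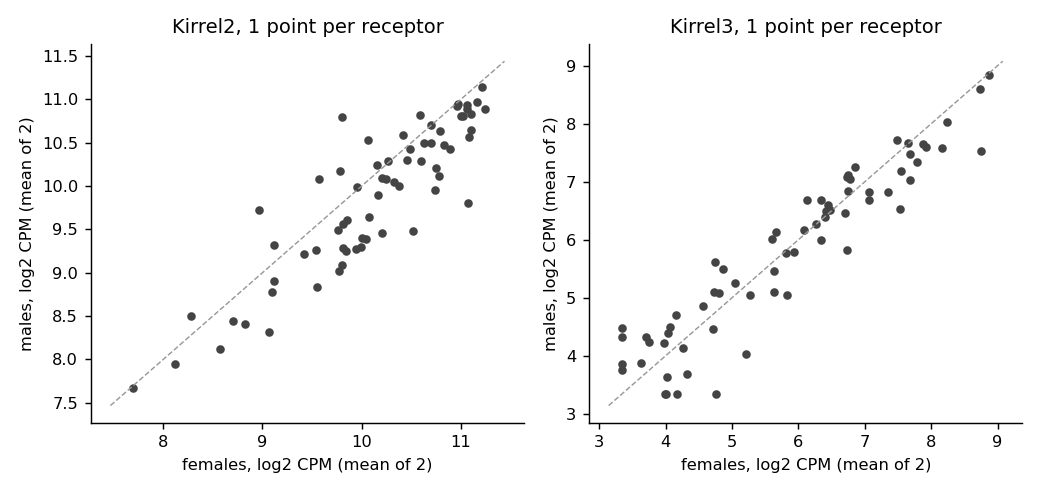
Level of Kirrel2 (left) and Kirrel3 (right) in neurons of each of 67 receptors, as log2 CPM, in females (horizontal, mean of 2) against males (vertical, mean of 2), with a dashed line of equality. Points lie along the line in both panels, and Kirrel3 spans the wider range. Counts summed over the libraries of each sex, in place of the plotted means, gave r = 0.893 and 0.920.

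Across receptors the pattern of the genes was opposed, in part. With 1 gene read in females and the other in males, r was -0.47 and rho -0.46 (mean of both directions, -0.44 and -0.50, n = 67 receptors), so shared counting error did not enter. Within a library r was -0.45, -0.48, -0.51 and -0.43 in female 1, female 2, male 1 and male 2. Without the 2 receptors farthest from the median of Kirrel2 it was -0.40. With each gene split at its median in the females, 21 receptors were above for Kirrel2 only, 21 for Kirrel3 only, 12 for both and 13 for neither. In the males these were 24, 24, 9 and 10, and 19 receptors were on the Kirrel2 side and 19 on the Kirrel3 side in both sexes.

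**Figure D4:**
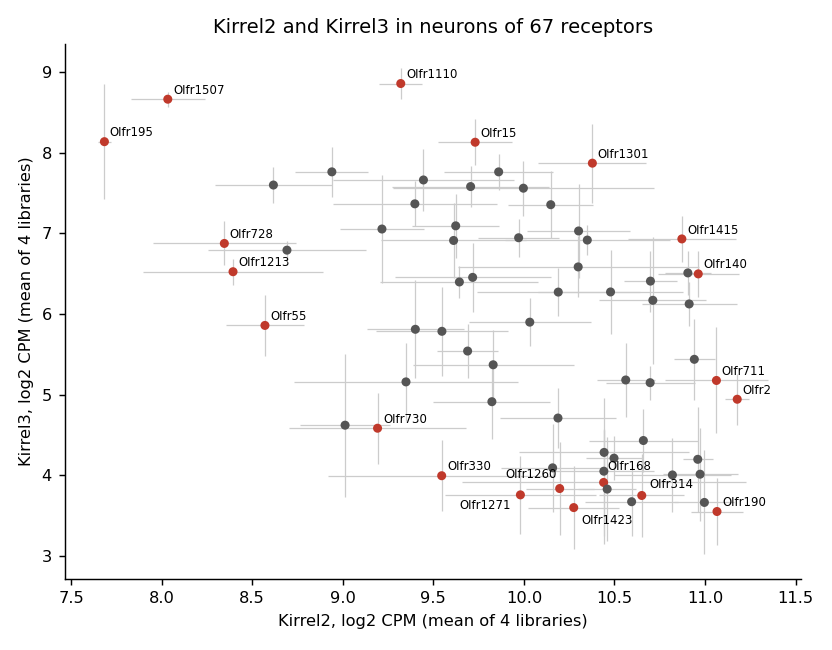
Kirrel2 (horizontal) against Kirrel3 (vertical) in neurons of 67 receptors, as log2 CPM, mean of 4 libraries with grey bars for the SD; red points are the named receptors. High Kirrel3 with low Kirrel2 is seen for Olfr1507 and Olfr195 at the upper left, and the reverse for Olfr190 and Olfr2 at the lower right. Olfr1301 and Olfr1415 lie above the median of both genes, at ranks 42 and 57 of 67 for Kirrel2 and 63 and 50 for Kirrel3.

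Receptors were named by their order in the 2 female libraries, so the male values are independent of the choice. The 5 highest for Kirrel3 were Olfr1110, Olfr195, Olfr1507, Olfr15 and Olfr1301. Olfr1110 (chromosome 2, 87133673 to 87140300 on GRCm38) had 517, 410, 398 and 500.3 CPM of Kirrel3 in female 1, female 2, male 1 and male 2, and 663, 688, 586 and 586 CPM of Kirrel2. Olfr1507 (chromosome 14, 52488791 to 52495749) had 398, 433, 374 and 378 CPM of Kirrel3 and 294, 245, 268 and 208 CPM of Kirrel2, in 56 to 66 cells per library. These values varied little between libraries, and in the males the receptors ranked 67 and 66 of 67 for Kirrel3.

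Olfr195 (chromosome 16, 59147046 to 59150777) had the lowest Kirrel2 of all tested receptors, at 193, 203, 195 and 192 CPM. Its Kirrel3 was at 398, 440.4, 158 and 192 CPM, higher in both females than in either male, in 11 to 15 cells per library. Olfr190 (59067140 to 59078005), in the same gene cluster on chromosome 16, had the opposite state. Its Kirrel2 was at 2094, 2471, 2024 and 1980 CPM, and Kirrel3 had 1 UMI in male 2 and 0 in the other libraries, where a count of 0 allows up to 14.4 to 30.1 CPM.

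The 5 highest for Kirrel2 were Olfr711, Olfr2, Olfr190, Olfr1415 and Olfr140, which ranked 62, 67, 66, 54 and 60 of 67 in the males. Olfr2 (chromosome 7, 106995399 to 107006072) had 2412, 2302, 2355 and 2165 CPM of Kirrel2 and 12.04, 25.2, 23.2 and 24.2 CPM of Kirrel3. Olfr711, which lies near it, had 2759, 2101, 2074 and 1710 CPM of Kirrel2, with 14 Kirrel3 UMIs in all. The 5 lowest for Kirrel2, Olfr195, Olfr1507, Olfr1213, Olfr728 and Olfr55, ranked 1, 2, 7, 3 and 6 in the males. Those last 3 had 82.3, 109 and 49.4 CPM of Kirrel3 on average, near or above the median of 50.5 CPM over receptors and below the 297 and 396 CPM of Olfr195 and Olfr1507.

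The 5 lowest for Kirrel3, Olfr1260, Olfr168, Olfr190, Olfr1423 and Olfr314, had 1 to 3 UMIs each over all libraries. Their order among the lowest could not be told at this depth, since a count of 0 allowed up to 9.98 to 49.98 CPM. Their Kirrel2 means lay between 1171 and 2142 CPM.

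The receptors highest in both genes by summed rank were Olfr1415, Olfr140 and Olfr1301. Olfr1301 (chromosome 2, 111751006 to 111758852) had 1778, 1098, 1269 and 1227 CPM of Kirrel2 and 352, 217, 149 and 219 CPM of Kirrel3. Lowest in both were Olfr330, Olfr1271 and Olfr730, with means of 787, 1032 and 598 CPM of Kirrel2 and 6.31, 3.96 and 14.7 CPM of Kirrel3. In the males Olfr1415, Olfr140 and Olfr1301 ranked 54, 60 and 44 of 67 for Kirrel2 and 54, 42 and 60 for Kirrel3. Olfr330 and Olfr730 ranked 14 and 9 for Kirrel2 and 13 and 17 for Kirrel3 there, whereas Olfr1271 ranked 39 for Kirrel2, so the males did not show it low in both.

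Clusters of mature OSN-like cells, built without either gene, also differed in both. Over the 8 clusters Kirrel2 ran from 235 to 1657 CPM and Kirrel3 from 23.5 to 416 CPM. The smallest, 178 cells led by Olfr1507, had 416 ± 26.2 CPM of Kirrel3 and 235 ± 23.1 CPM of Kirrel2 (SD, n = 4). A cluster of 1989 cells led by Olfr1349, Avp and S100a5 had 32.7 ± 7.12 CPM of Kirrel3 and 1657 ± 280 CPM of Kirrel2 (SD, n = 4). Kirrel3 was lowest in a cluster of 1601 cells with Olfr1271 among its leading genes, at 23.5 ± 4.27 CPM, with Kirrel2 at 1185 ± 143 CPM (SD, n = 4). The largest cluster, of 4134 cells, had the second highest Kirrel3 at 159 ± 10.4 CPM with Kirrel2 at 1172 ± 171 CPM (SD, n = 4), so opposed levels were not seen in it. Its cells were shallow, with a median of 3144 UMIs against 7320 to 12323 in the other mature OSN-like clusters. Its leading genes were Ttll6, Hdac9 and Olfr1264. Whether its levels of the 2 genes depend on this depth was not tested.

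All 67 tested receptors were of class II, the larger family. Class I receptors, taken by position as those in the class I gene cluster of chromosome 7, were assigned to 1292 cells over 110 receptors. Their Kirrel2 was at 874, 745, 841 and 678 CPM in the 4 libraries, below class II in each library (1194, 1019, 1062 and 867 CPM, 16610 cells). Kirrel3 was at 89.8, 74.1, 69.5 and 84.6 CPM in class I and at 97.5, 95.1, 88.8 and 94.1 CPM in class II, also lower in each library, by less. The classes were not tested against each other.

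For 8 receptors at least 10 transitional and 10 mature cells were found, pooled over libraries. Kirrel2 was higher in the mature cells for 3 of them and Kirrel3 for 4. In neurons of Olfr1507 Kirrel3 was at 281 CPM in transitional and 413 CPM in mature cells, and Kirrel2 at 439 and 229 CPM. In neurons of Olfr325 Kirrel2 was at 1040 and 1574 CPM. Each receptor had 10 to 24 transitional cells. In 7 of the 8 these cells had 2 to 23 Kirrel3 UMIs, so the direction of Kirrel3 could not be told there at this depth. Pooling hid the spread between libraries, and neither gene was tested within a receptor.

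In single Omp-positive cells the genes were found together about as often as their separate shares predict when all UMIs were counted. Kirrel2 was seen in 89.7% ± 1.52, Kirrel3 in 35.4% ± 1.202 and both in 31.7% ± 1.56 of the cells (SD, n = 4), against a product of the shares of 31.8%. The odds ratio of co-detection was 1.03, 1.10, 0.778 and 1.002 in female 1, female 2, male 1 and male 2 (0.978 ± 0.140, SD, n = 4), where 1 means independence. Deeper cells have more UMIs of both genes, so cells were also thinned to 2000 UMIs, which left out 2031 shallower cells. The ratio was then 0.426, 0.627, 0.496 and 0.622 (0.543 ± 0.0987, SD, n = 4), below 1 in all libraries. What equal depth and the cells left out each add to this was not tested. In cells of at least 5000 UMIs the ratio was 0.332 ± 0.0741 (SD, n = 4). In thinned cells with 0, 1, 2 to 3, and 4 or more Kirrel2 UMIs, Kirrel3 was seen in 22.2% ± 2.63, 16.9% ± 1.45, 13.6% ± 1.26 and 9.04% ± 0.891 (SD, n = 4).

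Among cells of the same receptor the opposition was not seen. In assigned cells the odds ratio was 0.534 ± 0.0950 with all UMIs, and stratified by receptor (Mantel-Haenszel) it was 1.89 ± 0.355 (SD, n = 4), above 1 in all libraries. Thinned to 2000 UMIs, it was 0.517 ± 0.0935 over all assigned cells and 0.988 ± 0.192 within receptors (SD, n = 4), with 0.753, 0.990, 0.988 and 1.22 in the 4 libraries. At equal depth, cells of 1 receptor thus had the genes together about as often as independence gives. Receptors with under 5 cells in a library were left out of the strata, so the stratified ratios rest on fewer cells than the unstratified ones. They used 291 to 340 receptors per library with all UMIs and 274 to 317 when thinned.

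**Figure D5:**
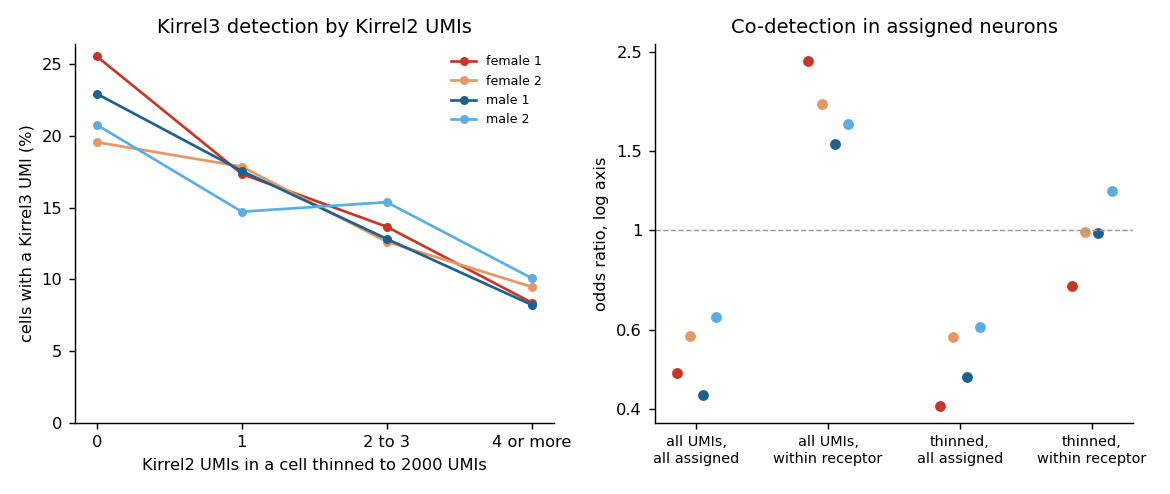
Left, share of Omp-positive cells with a Kirrel3 UMI (vertical, percent) by their number of Kirrel2 UMIs after thinning to 2000 UMIs, with 1 line per library. Right, odds ratio of co-detection on a log axis in assigned cells, with all UMIs or thinned and over all cells or within receptors; points are libraries and the dashed line marks 1. The share falls from 22.2% to 9.04% on average, and the thinned ratio goes from 0.517 over all cells to 0.988 within receptors.

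The genes most like each member across receptors were taken from 3488 others past the F test, by the mean r between females and males (n = 67 receptors, which share libraries). For Kirrel2 they were Epha5 (0.77), Kcng1 (0.76), Slc8a1 (0.74), S100a5 (0.74) and Apba1 (0.73), of which Epha5 encodes an ephrin receptor, Kcng1 a potassium channel subunit and Slc8a1 a sodium-calcium exchanger. The most opposite were B830017H08Rik (-0.74), Efna3 (-0.71), Zfand2a (-0.62), Gramd1c (-0.61) and Ppp3r1 (-0.61), among them an ephrin ligand gene and the regulatory subunit gene of calcineurin. For Kirrel3 the most like were Dnaic2 (0.77), Lrguk (0.73), Rnf128 (0.73), Stoml3 (0.72) and Cep83 (0.72), and Stoml3 encodes a stomatin of OSN cilia. The most opposite were Olfm1 (-0.72), Dhrs3 (-0.68), Bcl6 (-0.66), Cystm1 (-0.65) and Plcxd3 (-0.65).

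The listed genes lay on either side or on neither. Because the lists were chosen with earlier results of these data known, the counts that passed describe the lists and do not test them. All 6 of the tested activity-linked genes passed the receptor test, where 34.8% of all genes did, with a median SD of 0.69 over receptors against 0.28 over all genes (log2). Epha5 had r = 0.77 with Kirrel2 and -0.28 with Kirrel3, whereas its ligand gene Efna5 had -0.60 and 0.38. Sema7a had 0.54 and -0.21. Cntn4 had -0.24 with Kirrel2 and 0.23 with Kirrel3, Pcdh17 had -0.23 and 0.28, and Pcdh10 was near 0 with both. All 9 genes of transduction and activity passed, with a median SD of 0.40, and Pcp4l1 had r = 0.67 with Kirrel2, while Cnga4, a subunit of the olfactory channel, had 0.63 and Gnal, the olfactory G protein gene, 0.57 with Kirrel3. In the position lists all 5 anterior-posterior and all 4 dorsal-ventral genes passed (34.8% of all genes), with median SDs of 0.60 and 0.57. The SDs over receptors of Sema3a, Plxna4, Sema3f and Slit1 (0.385, 0.351, 0.414 and 0.435) were below those between libraries of a receptor (0.520, 0.373, 0.574 and 0.483). The other position genes had the larger SD over receptors. In the transduction list Gnas had 0.816 against 1.05 between libraries. Plxna1 had r = -0.56 and Nrp1 r = 0.56 with Kirrel3. Of the 8 tested family and partner genes 3 passed, a share near the 34.8% of all genes and so no result about the list, and these were Kirrel, Nphs1 and Cask. Kirrel had r = -0.20 with Kirrel2 and -0.47 with Kirrel3. Nphs1 had r = 0.56 with its neighbour Kirrel2 and -0.32 with Kirrel3.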

How the data were processed

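Single-cell transcriptomes of the main olfactory epithelium were analysed from 4 libraries, grouped by the sex in the labels. The authors deposited raw UMI counts per gene and barcode, made with Cell Ranger 6.0.2 per the file headers, while the submitters' processing notes give version 5.0.1 and the build mm10. The annotation used for counting was not given in the sources used here. Of the 22399 gene IDs, 22285 (99.5%) were found in GENCODE M21.

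Barcodes with under 500 genes or over 10% mitochondrial UMIs were left out, and doublets were removed by likeness to simulated ones (2 per barcode, 50 neighbours, 0.8% per 1000 barcodes). Cells were clustered on 2000 variable genes, 30 components and 15 neighbours at Leiden resolution 1 (leidenalg 0.10.2, scikit-learn 1.9.0). Kirrel2, Kirrel3, receptor genes and most listed genes were kept out. The listed genes Cnga2, Cnga4, Cngb1, Adcy3, Gnal and Gnas were not kept out. Clusters were named X-like from marker genes, with thresholds set after the clusters were seen. UMIs were summed per library and stage (12 sums) or receptor (268 sums), and tested with edgeR 4.0.16 in R 4.3.3 (TMM scaling, quasi-likelihood, Benjamini-Hochberg at 0.05). Receptor sums needed a mean of 1 count. CPM are counts scaled to the total UMIs of the summed cells, and correlations were taken on log2 CPM after adding 2 prior counts. Alternatives included DESeq2 1.42.0, other gates, depths and filters, doublets kept and each library left out. The edgeR steps were tested on simulated data.

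Named genes were the 2 members, 5 lists and, for each member, the 5 genes most like and the 5 most unlike it across receptors. Named receptors were the 5 highest and 5 lowest for each gene and the 3 highest and 3 lowest summed ranks, in females only. The members and lists were chosen with earlier results of these data known. Floors (3 counts) cover counting error only.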

Additional observations from a re-analysis of the deposited data

Results flagged for a closer look

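Of 64 groups of 4 libraries checked, 8 had 1 library whose gap to the nearest of the others exceeded the 95% critical share of the range, and chance alone marks about 1 in 20 groups. Kirrel2 in immediate neuronal precursor-like cells was at 23.8 CPM in male 2, against 45.0 to 47.9 CPM in the other libraries. Kirrel2 in neutrophil-like cells was at 306 CPM in female 2, against 54.2 to 87.7 CPM. Kirrel2 in neurons of Olfr728 was at 479 CPM in female 1, against 263 to 286 CPM. Kirrel3 in Bowman gland-like or secretory cells was at 11.6 CPM in 1 library, against 5.47 to 6.14 CPM. In neurons of Olfr330 Kirrel3 was at 0 CPM in female 2, against 7.73 to 9.05 CPM, and a count of 0 allowed up to 20.2 CPM there. In 3 more groups the high value was a single Kirrel3 UMI beside 0 in the other libraries, at 10.8 CPM in neutrophil-like cells of female 1 and at 10.6 and 8.02 CPM in male 2 neurons of Olfr1423 and Olfr190.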

How the results depend on the processing

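Both genes kept their direction and their side of the threshold in every stage contrast over the 13 or 14 alternatives run, with mature over immature at 2.41 to 3.01 for Kirrel2 and 1.59 to 2.07 for Kirrel3 (log2). The decrease of Kirrel3 from transitional to mature neurons ran from -0.41 to -0.14, with a highest adjusted p of 0.0491 (edgeR) without male 2. Receptor identity gave an SD of 0.78 to 0.84 for Kirrel2 and 1.46 to 1.90 for Kirrel3, and 2683 to 3951 genes called. The receptor test with at least 5 cells was not run.

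Between the sexes, 1 gene was called, 0 with the replicate block, 142 with DESeq2 (88 higher, 54 lower) and 2 in cells of at least 5000 UMIs, and 0 to 2 with each library left out. At an unadjusted p under 0.05 there were 707 genes with edgeR, 815 with the block and 600 with DESeq2. With the replicate block Kirrel2 was at -0.18 and Kirrel3 at -0.03 (adjusted p = 0.883 and 0.981, edgeR), and same-numbered libraries did not deviate together (r = -0.08 over 14681 genes, 2 pairs), so the numbers were not taken as a pairing. With a library left out the Kirrel3 difference ran from -0.080 to 0.027, and the sign turned without male 1. The cause was not tested.

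The odds ratio of co-detection, 0.978 as first computed, was 0.332 in cells of at least 5000 UMIs, 0.543 thinned, 0.696 with at least 2 UMIs of each gene, 0.718 with the Omp gate at 2000 CPM and 1.89 stratified by receptor. In all assigned cells without strata, including those of receptors too rare for the strata, it was 0.534, and 0.517 thinned. These last 2, the thinned and stratified ratio and the results without mixed clusters were added after seeing the data. Across receptors r went from -0.47 to -0.40 without the 2 receptors farthest from the median of Kirrel2, -0.39 with at least 5 cells (165 receptors), -0.52 with 95% of the Olfr UMIs (42 receptors) and -0.61 in cells of at least 5000 UMIs (38 receptors). At this depth 21 receptors had at most 10 Kirrel3 UMIs.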
